A study of Mus musculus with 16 samples.

Results

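Dendritic cells exposed to Lactobacillus acidophilus NCFM for 18 h were compared with cells exposed to it for 10 h. The comparison takes 6 of the 16 arrays of the series, 3 at each time, chosen by the array titles and not by any measured value. All cells came from the bone marrow of C57BL/6 mice and were grown for 8 days with 15 ng/ml GM-CSF, a myeloid growth factor that was produced here by a transfected myeloma line. The non-adherent immature cells were then moved to fresh medium with 10 ng/ml GM-CSF, and NCFM, a Lactobacillus strain used as a probiotic, was added at 10 µg/ml. Control cells were taken at 10 and 18 h (2 arrays each), and they give the change over the same time in cells labelled as controls. The 4 h arrays, 3 of NCFM cells and 3 of controls, entered the estimate of the spread, and their levels are given or plotted for a few genes without a test. The labels do not say whether replicates were separate mice or cultures, so p-values measure the spread between these samples, which may be technical.

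Dendritic cells detect bacteria through Toll-like receptors and other pattern receptors. Signals through NF-kB and interferon regulatory factors then switch on genes for cytokines, chemokines, co-stimulatory molecules and antiviral proteins, and feedback inhibitors limit the response. Activated dendritic cells also take up more glucose and run glycolysis faster, and many glycolytic genes are known targets of the hypoxia-inducible factor HIF-1. Between 10 and 18 h the bacteria had been present for a long time, so the comparison asks which transcripts went on changing within stimulated cells.

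The median intensity of the 6 arrays lay between 164 and 166 and their first quartile between 107 and 108. Precision is limited by having 3 arrays at each time. The dendritic cell genes H2-Aa (15309 to 17360), Ccr7 (2721 to 9979) and Itgax (1654 to 3135) were bright on all 6 arrays. The lectin gene Cd209a was dim, at 146 to 179. The macrophage genes Csf1r (5831 to 13540) and Cd68 (3748 to 9532) were bright as well. T cell genes such as Cd3e stayed at 272 to 315 and the B cell gene Cd79a at 112 to 122. Arrays with the number 1 stood apart at both times. Xist, which silences the second X chromosome, had 245 and 263 on them against 4253 to 5232 on the other 4 arrays, and the Y-linked gene Eif2s3y had 1097 and 898 against 66 to 69. Number 1 thus has the pattern of male cells and the other 4 arrays that of female cells, which the labels do not state. Arrays with equal numbers deviated alike from their group means. A fit that takes the number as a block is therefore given beside some of the counts that it changes. Counts of list members given without mention of the block come from the fit without it. RNA came from whole cultures, in which fewer cells of a type and less RNA per cell cannot be told apart.

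From 10 to 18 h, inflammatory genes such as Tnf, Ccl4 and Ch25h fell, as did the adhesion gene Vcam1 and the splicing factor Sfpq. The glycolysis genes Tpi1 and Pkm rose, and so did the oxidase gene Ero1a, which is known to respond to low oxygen. The largest rise was that of Selenbp1, and the lipid enzyme Scd2 rose with it. Of 27 cytokine and 39 antiviral effector genes 1 each passed the test. In the limma fit over all 16 arrays 507 of 18193 genes were called at an adjusted p under 0.05, after Benjamini-Hochberg adjustment across the whole table. Of these, 292 were higher at 18 h, which is 1.61% of the genes tested, and 215 were lower, or 1.18%. Counts of list members called without the block stand beside these shares of all genes. The median change of all genes was 0.02 on the log2 scale. Changes below are log2 of the ratio of 18 h to 10 h, given with the standard error (SE) that limma estimates.

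With the array number as a block 696 genes were called higher, or 3.83%, and 620 lower, or 3.41%. All 507 genes were among them. On 506 of the 507 genes the 3 arrays of 18 h lay entirely beyond the 3 of 10 h. Over all genes 2304 were separated upward in this way, or 12.7%, and 1493 downward, or 8.21%. Rises of at least 2-fold numbered 29 and falls of at least 2-fold 35. The count depended on single arrays: it was 127 without NCFM 18 h replicate 2, 157 without NCFM 10 h replicate 3, 254 without NCFM 10 h replicate 2 and 318 without NCFM 18 h replicate 3. Of the 507 genes 118 were called whichever of the 6 arrays was left out, and so were 18 of the 40 genes with the largest rises and falls. These 40 were chosen among called genes with separated arrays, so their separation was set by the choice, also where it is described below. Centring the arrays on 18 spike-in probe sets moved the median change of all genes to 0.18, and the split to 791 higher and 107 lower (88.1% higher, against 57.6%).

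Selenbp1, a selenium-binding protein that oxidizes methanethiol, had intensities of 235, 362 and 287 at 10 h and of 2116, 2918 and 1866 at 18 h, in the order of array numbers 1 to 3. All 18 h arrays lay far above the 10 h arrays, a 7.79-fold rise (2.96 ± 0.39 SE, n = 3 against 3, limma adjusted p = 0.00264). Control cells had 828 and 2000 at 10 h and 739 and 1004 at 18 h, so NCFM cells lay below the controls at 10 h and above them at 18 h. Adssl1, an adenylosuccinate synthetase of purine nucleotide metabolism, rose from 343, 397 and 355 to 1284, 1568 and 1439 (1.97 ± 0.20, adjusted p = 7.95e-04). Its groups were as clearly apart, and the controls had 771 to 1403 over both times. Prkar2b, a regulatory subunit of protein kinase A, had 375, 411 and 406 and then 937, 978 and 1191 (1.37 ± 0.13, adjusted p = 6.78e-04). Each of these 3 genes was called with any array left out. With the block they were also called in the difference from the change in controls (limma adjusted p = 0.00215, 0.0117 and 0.00988), which they were not without it. In these and later such calls the block takes controls and NCFM arrays of equal number as alike. That was looked at only between NCFM arrays of 10 and 18 h. With the block in only the 4 groups compared, 2 genes of the whole table were called in this difference.

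**Figure D1:**
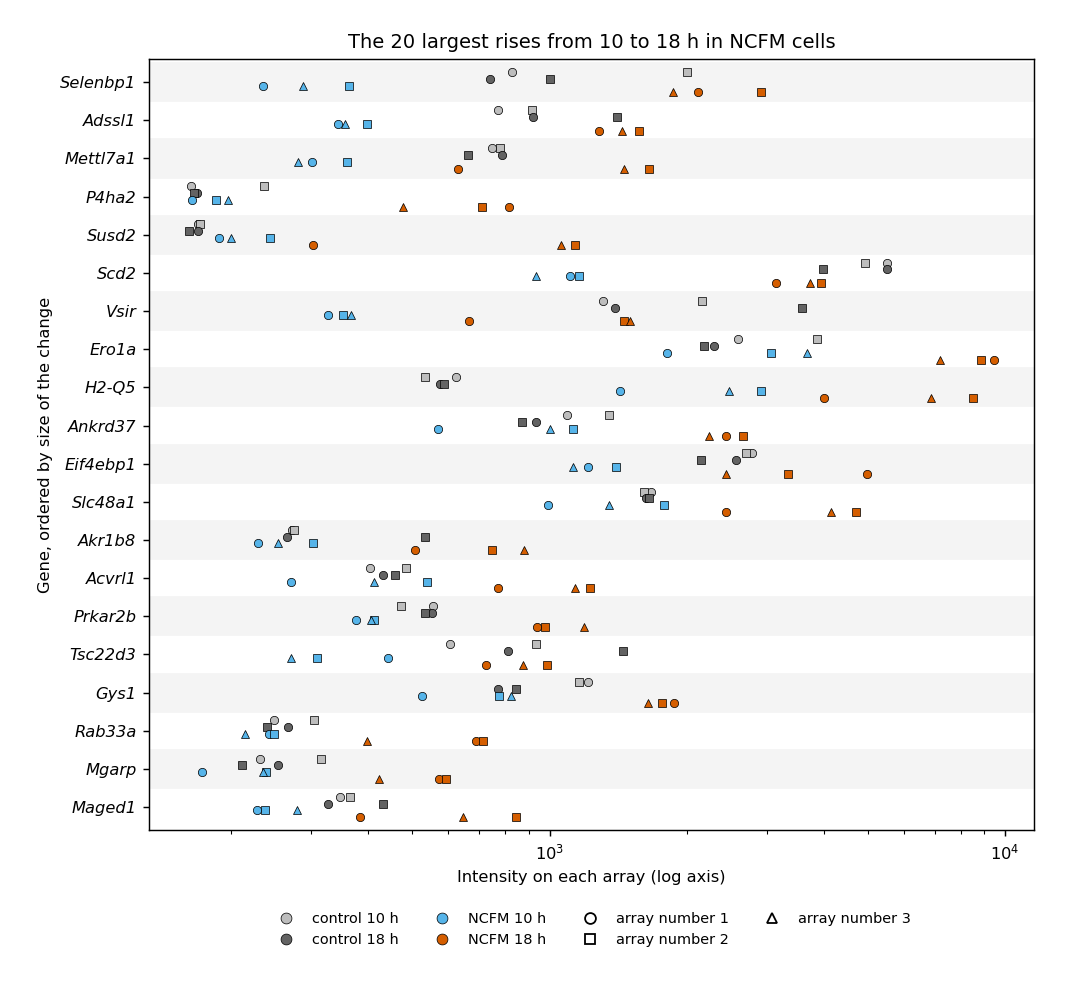
Intensity on each array (log axis) of the 20 genes with the largest rises from 10 to 18 h in NCFM cells, ordered by size from the top. Blue marks are NCFM 10 h, orange NCFM 18 h and grey the controls, with 1 shape for each array number. By the rule that chose these genes every orange mark lies to the right of every blue mark. The changes run from Selenbp1 at 2.96 to Maged1 at 1.26 on the log2 scale.

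Enzymes that make or modify lipids gave 2 of the rises. Scd2, a stearoyl-CoA desaturase that makes monounsaturated fatty acids, had 1111, 1161 and 935 at 10 h and 3137, 3947 and 3726 at 18 h (1.75 ± 0.20, limma adjusted p = 0.00125, and a change of 1.14 with its probe sets averaged). The 18 h arrays were all higher, while the controls had 4914 and 5514 at 10 h and 3990 and 5515 at 18 h. In the list of fatty acid synthesis genes Me1, the malic enzyme that supplies NADPH, rose as well (0.50 ± 0.09, adjusted p = 0.012), from 304 to 330 up to 401 to 490. Those were the 2 calls among 16 measured members, none lower, with a median change of 0.10, where 1.61% of all genes were called higher. Me1 lost its call without NCFM 10 h replicate 3 or NCFM 18 h replicate 2 (adjusted p up to 0.0677). The desaturase Fads1 passed only with the block (0.84, adjusted p = 0.0247, and 0.0561 without it). Scarb1, a receptor that takes up high-density lipoprotein, had 348, 375 and 409 and then 536, 799 and 987 (1.00 ± 0.17, adjusted p = 0.0093). Its 18 h arrays were all above those of 10 h, and without NCFM 18 h replicate 2 its adjusted p was 0.0555. Of 19 genes of cholesterol synthesis and uptake and 11 LXR targets none was called, with median changes of 0.04 and 0.06.

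Genes of glycolysis and of the response to low oxygen had the largest median among the 35 gene lists. It was 0.48 over 24 measured members, against 0.02 over all genes, and -0.03 for the same list in controls. In this list 5 members rose and 1 fell, where 1.61% of all genes were called higher and 1.18% lower. With the block 10 rose and 1 fell, beside 3.83% and 3.41% of all genes. The 35 lists were chosen with earlier results of these data known, so these counts describe the list and do not test it. By array number the median was 0.83 for number 1, 0.48 for number 2 and 0.35 for number 3. It stayed between 0.47 and 0.64 under the other scalings. The 4 members with the largest rises among those called without the block are shown with their promoters, since they rose together and HIF-1 is known to bind a short core in the promoters of such genes. The lines give RefSeq windows of 300 bases (GRCm38.p6), from 250 bases before to 50 bases after the start of the gene on its own strand. Capitals mark the hypoxia response core ACGTG or GCGTG on either strand. Ero1a lies at chr14:45318523-45318822 on the minus strand, Tpi1 at chr6:124814109-124814408 on the minus strand, Pkm at chr9:59656326-59656625 on the plus strand and Pgk1 at chrX:106186850-106187149 on the plus strand.
Ero1a: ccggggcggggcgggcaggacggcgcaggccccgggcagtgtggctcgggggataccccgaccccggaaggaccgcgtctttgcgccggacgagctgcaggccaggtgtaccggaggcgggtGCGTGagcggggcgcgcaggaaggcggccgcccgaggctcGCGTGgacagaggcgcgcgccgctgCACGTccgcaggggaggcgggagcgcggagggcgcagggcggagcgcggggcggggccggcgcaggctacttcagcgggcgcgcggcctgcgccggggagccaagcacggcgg
Tpi1: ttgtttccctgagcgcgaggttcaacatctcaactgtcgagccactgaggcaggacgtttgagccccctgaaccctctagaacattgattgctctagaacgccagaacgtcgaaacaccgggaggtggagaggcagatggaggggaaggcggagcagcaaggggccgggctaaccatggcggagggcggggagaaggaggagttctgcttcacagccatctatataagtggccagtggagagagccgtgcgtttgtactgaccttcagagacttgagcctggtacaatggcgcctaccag
Pkm: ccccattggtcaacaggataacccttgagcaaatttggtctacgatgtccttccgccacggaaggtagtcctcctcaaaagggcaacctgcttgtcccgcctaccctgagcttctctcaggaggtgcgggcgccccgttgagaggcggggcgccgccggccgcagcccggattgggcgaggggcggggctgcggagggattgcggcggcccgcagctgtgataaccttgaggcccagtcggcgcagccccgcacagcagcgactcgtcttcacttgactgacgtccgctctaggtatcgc
Pgk1: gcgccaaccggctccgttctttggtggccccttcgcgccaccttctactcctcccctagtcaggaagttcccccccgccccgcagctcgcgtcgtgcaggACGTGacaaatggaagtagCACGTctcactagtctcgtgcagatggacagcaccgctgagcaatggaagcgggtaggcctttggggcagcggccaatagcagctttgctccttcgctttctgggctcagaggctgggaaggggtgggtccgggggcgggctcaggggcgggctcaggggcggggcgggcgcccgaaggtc

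The core occurred 3 times in the Ero1a window, 2 times in that of Pgk1 and not in those printed for Tpi1 and Pkm. A second start of Pkm, not printed, had 2 matches. These short letters are common: at least 1 match was found in 43.8% of all 32851 windows of the table and in 55.6% of the first windows of 14452 measured genes. The share was 66.8% of 223 windows of genes called higher and 68.3% of 167 windows of genes called lower, so it was about as high in both. The median number of CG dinucleotides was 17 in windows of measured genes, 20 in those called higher and 22 in those called lower.

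Ero1a, an oxidase that forms disulfide bonds in the endoplasmic reticulum, had 1815, 3063 and 3675 at 10 h and 9446, 8861 and 7185 at 18 h (1.63 ± 0.36, limma adjusted p = 0.0331). The 10 h arrays were close to the controls, which had 2597 and 3872 at that time, and the 18 h arrays lay above the controls of 18 h at 2302 and 2183. Leaving out any 1 of the 6 arrays ended its call (adjusted p up to 0.134), although the direction was the same in each pair of equal numbers. Tpi1, the triosephosphate isomerase of glycolysis, had 6458, 7715 and 8327 and then 13978, 14461 and 13931 (0.92 ± 0.13, adjusted p = 0.00451). Pkm, the pyruvate kinase that ends glycolysis, had 4563, 5944 and 6401 and then 9626, 9522 and 9890 (0.79 ± 0.11, adjusted p = 0.00418). For both, the 18 h arrays lie close together and above all 10 h arrays, and both were called with any array left out. The kinase Pgk1 rose by 0.48 ± 0.10, and the aldolase Aldoa by 0.42 ± 0.07 (adjusted p = 0.0274 and 0.00733). Pgk1 lost its call without NCFM 10 h replicate 1 or 2 or NCFM 18 h replicate 2 or 3 (adjusted p up to 0.119).

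Several members passed only with the block. Egln3, a prolyl hydroxylase that marks HIF for degradation, had 1061, 2150 and 2067 at 10 h and 8057, 5098 and 3323 at 18 h (1.62 ± 0.40, limma adjusted p = 0.055, and 0.0339 with the block). Its groups did not overlap, and the array numbered 1 had both the lowest 10 h and the highest 18 h value. The mitophagy gene Bnip3 (0.99, adjusted p = 0.0471 with the block), the glucose transporter Slc2a3 (0.96, 0.0071), the lactate dehydrogenase Ldha (0.54, 0.044) and the aldolase Aldoc (0.47, 0.0424) were the others. Slc2a1, the main glucose transporter, had 2928 to 5360 at 10 h and 6111 to 10663 at 18 h and did not pass in either fit (0.95, adjusted p = 0.115 and 0.0737). Slc2a6, a glucose transporter of lysosomal membranes, was the member that fell. It had 3651, 3712 and 3938 and then 1826, 1577 and 1391 (-1.25 ± 0.17, adjusted p = 0.00311), while controls stayed at 1550 to 2144. Its 18 h arrays lay near the controls, and its 10 h arrays above them.

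Metabolic and regulatory genes outside this list stood among the 20 largest rises. P4ha2, a subunit of the enzyme that hydroxylates collagen prolines, had 164, 185 and 197 at 10 h and 813, 709 and 477 at 18 h (1.84 ± 0.27, limma adjusted p = 0.00508). Ankrd37, an ankyrin repeat protein, had 568, 1128 and 1002 and then 2434, 2654 and 2235 (1.50 ± 0.25, adjusted p = 0.00816). Mgarp, a mitochondrial protein involved in mitochondrial transport, had 173, 239 and 235 and then 572, 593 and 423 (1.29 ± 0.23, adjusted p = 0.0116). All 3 genes are known to be induced by low oxygen. By the rule of choice they were higher on every 18 h array, and in all 3 the step was largest between the arrays numbered 1. Gys1, the glycogen synthase, had 526, 775 and 824 and then 1872, 1768 and 1643 (1.34 ± 0.18, adjusted p = 0.00291), with controls at 769 to 1212. Eif4ebp1, a repressor of translation that mTOR phosphorylates, had 1216, 1396 and 1128 and then 4974, 3342 and 2444 (1.47 ± 0.30, adjusted p = 0.0252). Eif4ebp1 lost its call when any array but NCFM 18 h replicate 3 was left out (adjusted p up to 0.102). Ankrd37 and Mgarp lost their calls without NCFM 18 h replicate 2 alone, with adjusted p at most 0.0517 and 0.0691 over the arrays left out. No member of the oxidative phosphorylation list was called among 33, and its median change was 0.00.

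The remaining large rises belonged to no single list. Vsir, the inhibitory receptor VISTA, had 326, 352 and 366 at 10 h and 666, 1455 and 1501 at 18 h (1.70 ± 0.38, limma adjusted p = 0.0368). Tsc22d3, the glucocorticoid-induced leucine zipper, had 441, 309 and 271 and then 725, 987 and 873 (1.36 ± 0.29, adjusted p = 0.0299). Mettl7a1, a putative methyltransferase, had 301, 359 and 281 and then 629, 1656 and 1456 (1.88 ± 0.28, adjusted p = 0.00479), and Susd2, a sushi domain membrane protein, 188, 244 and 200 and then 302, 1135 and 1061 (1.77 ± 0.37, adjusted p = 0.0267). In each of these 4 genes the step was smallest between the arrays numbered 1. H2-Q5, a class I gene of the Qa region whose probes may also detect related class I genes, had 1427, 2911 and 2478 and then 3995, 8511 and 6888 (1.50 ± 0.31, adjusted p = 0.0266). In the controls H2-Q5 lay at 533 to 623. Slc48a1, a heme transporter (1.44), Akr1b8, an aldo-keto reductase (1.42), Acvrl1, a receptor of the TGF-beta family (1.39), the small GTPase Rab33a (1.31), and Maged1, a melanoma antigen family member (1.26), completed the 20. With probe sets averaged the changes were 0.78 for H2-Q5, 0.72 for Tsc22d3 and 0.91 for Acvrl1, all still called. Vsir and Susd2 lost their calls when any array but NCFM 18 h replicate 1 was left out (adjusted p up to 0.168 and 0.127). Tsc22d3 lost its call without replicate 2 or 3 of either time (up to 0.138), and H2-Q5 and Slc48a1 without NCFM 10 h replicate 1 or 3 or NCFM 18 h replicate 2 or 3 (up to 0.133 and 0.0898). Without NCFM 18 h replicate 2 the calls of Akr1b8 (0.0548), Acvrl1 (0.0814), Rab33a (0.0778) and Maged1 (0.0572) were lost as well. So were those of Acvrl1 and Rab33a without NCFM 10 h replicate 3, of Acvrl1 without NCFM 18 h replicate 3 and of Maged1 without NCFM 10 h replicate 2.

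The 4 cytokine and chemokine genes that were called had all fallen. Tnf, the gene of tumour necrosis factor, had 3688, 4408 and 4908 at 10 h and 1510, 1611 and 2184 at 18 h (-1.30 ± 0.18, limma adjusted p = 0.00376). Every 18 h array was lower, yet all stayed above the controls at 482 to 685, and the 4 h arrays had been at 11525 to 16875. The chemokine Ccl4, which attracts monocytes and T cells, had 9309, 7745 and 10283 and then 5034, 2939 and 3384 (-1.30 ± 0.21, adjusted p = 0.00692). In control cells Ccl4 changed by -0.65, from 1073 and 869 to 713 and 531, and the difference between the changes did not pass (adjusted p = 0.447 with the block). Its relative Ccl3 had 12959, 9839 and 10751 and then 7904, 4638 and 4985 (-0.97 ± 0.19, adjusted p = 0.022). Ccl12, a monocyte chemokine, had 1609, 1534 and 1781 and then 711, 586 and 657 (-1.34 ± 0.28, adjusted p = 0.0289). Ccl12 lost its call when any array but NCFM 18 h replicate 1 was left out (adjusted p up to 0.132), and Ccl3 without NCFM 10 h replicate 1 or 3 or NCFM 18 h replicate 2 or 3 (up to 0.115).

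Most other cytokines and chemokines did not pass. Of 27 cytokines Tnf was the only call, with a median change of -0.11 that turned to 0.05 with spike-in centring. Of 16 CC chemokines Ccl3, Ccl4 and Ccl12 were called, all lower, with a median of -0.30. Over all genes 1.18% were called lower. No CXC chemokine of 13 and no chemokine receptor of 11 was called. Il6 had 12994, 12550 and 13802 at 10 h and 13751, 9010 and 5968 at 18 h, where the array numbered 1 stayed at its 10 h level and the others were lower (-0.54 ± 0.32, limma adjusted p = 0.498). Il1b had 15513, 7885 and 8060 and then 18261, 8435 and 5055, and the groups overlapped (-0.11 ± 0.65, adjusted p = 0.974). Il12b, a subunit of interleukins 12 and 23, had 9741 to 13457 and then 6055 to 11110 (-0.49 ± 0.35, adjusted p = 0.597). The anti-inflammatory cytokine Il10 had 592, 862 and 1369 and then 416, 352 and 419. Its groups did not overlap, and it passed only with the block (-1.17 ± 0.31, adjusted p = 0.0746, and 0.0125 with the block). Cxcl9, a ligand of Cxcr3, likewise passed only with the block (-0.75, adjusted p = 0.0158, and 0.43 without it), as did the receptor Ccr2 (-1.08, 0.0226, and 0.107 without it).

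**Figure D2:**
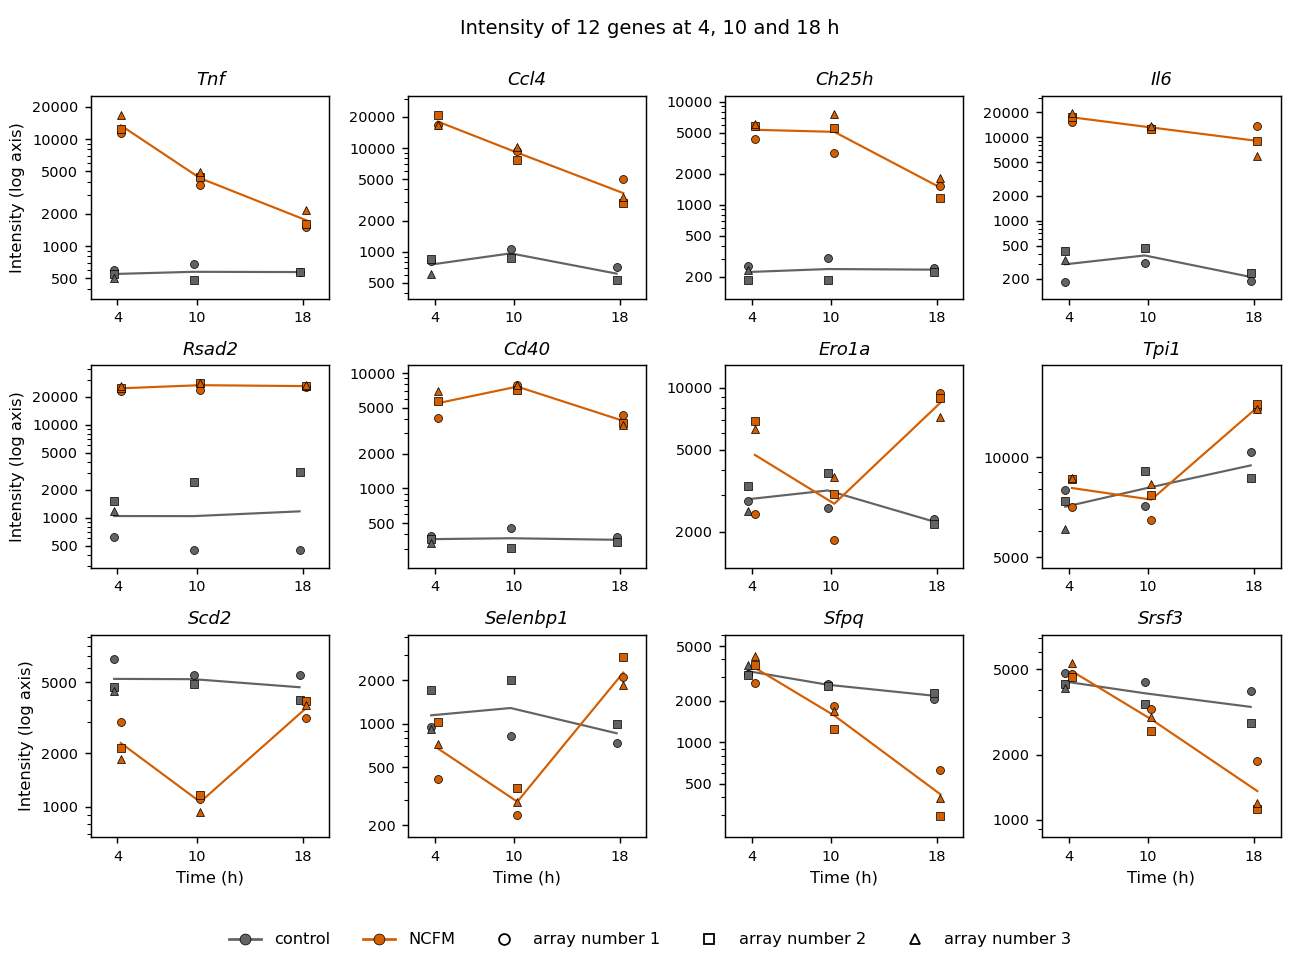
Intensity (log axis) of 12 genes on every array against time in hours, with NCFM cells in orange, controls in grey, 1 shape for each array number, and lines through the means of the log values. Tnf, Ccl4, Ch25h, Cd40, Sfpq and Srsf3 are lower in NCFM cells at 18 h than at 10 h, Ero1a, Tpi1, Scd2 and Selenbp1 are higher, and Rsad2 stays near 23759 to 28223.

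Enzymes and surface proteins of the inflammatory response gave further falls. Ch25h, which makes 25-hydroxycholesterol, had 3160, 5567 and 7509 at 10 h and 1518, 1153 and 1801 at 18 h (-1.80 ± 0.29, limma adjusted p = 0.00818). Its highest 18 h array was below its lowest 10 h array, and controls stayed at 185 to 306. Vcam1, the vascular cell adhesion molecule, had 1115, 1074 and 809 and then 322, 372 and 317 (-1.56 ± 0.14, adjusted p = 6.78e-04). The change of Vcam1 was -0.84 with its probe sets averaged. With the block Vcam1 was also called in the difference from the change in controls (-1.30, adjusted p = 0.0381). Serpinb2, the plasminogen activator inhibitor type 2, had 7555, 5949 and 6866 and then 4733, 985 and 937 (-2.05 ± 0.48, adjusted p = 0.0428). On the arrays numbered 2 and 3 it had come below the 18 h controls at 1693 and 1268, and on number 1 it had not. Gpr84, a receptor for medium-chain fatty acids, had 1653, 1805 and 2573 and then 796, 682 and 1089 (-1.23 ± 0.22, adjusted p = 0.0118). Lap3, a leucine aminopeptidase, had 2914, 2692 and 2912 and then 1012, 1061 and 997 (-1.47 ± 0.18, adjusted p = 0.00178), next to controls of 698 and 1060. Ch25h and Gpr84 lost their calls without NCFM 18 h replicate 2 (adjusted p up to 0.0535 and 0.0691), Gpr84 also without NCFM 10 h replicate 3, and Serpinb2 without any array but NCFM 18 h replicate 1 (up to 0.189).

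In the list of prostanoid, nitric oxide and itaconate enzymes Ch25h was the fall, and Alox5ap, the activating protein of 5-lipoxygenase in leukotriene synthesis, was the only rise. Alox5ap had 4256, 3258 and 3175 at 10 h and 5556, 6191 and 6025 at 18 h (0.74 ± 0.13, limma adjusted p = 0.00975), without overlap and below the controls at 9454 to 11655. It lost its call without NCFM 10 h replicate 3 or NCFM 18 h replicate 2 (adjusted p up to 0.0572). The other 17 of 19 members were not called. Among them Ptgs2, the inducible cyclooxygenase, had 6132 to 7171 at 10 h and 4108 to 8648 at 18 h. The itaconate enzyme Acod1 had 15552 to 20103 and then 16511 to 18580. Nos2, the inducible nitric oxide synthase, had 717, 2524 and 2946 and then 1580, 2051 and 2703, and so rose on the array numbered 1 and was lower on the other two.

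**Figure D3:**
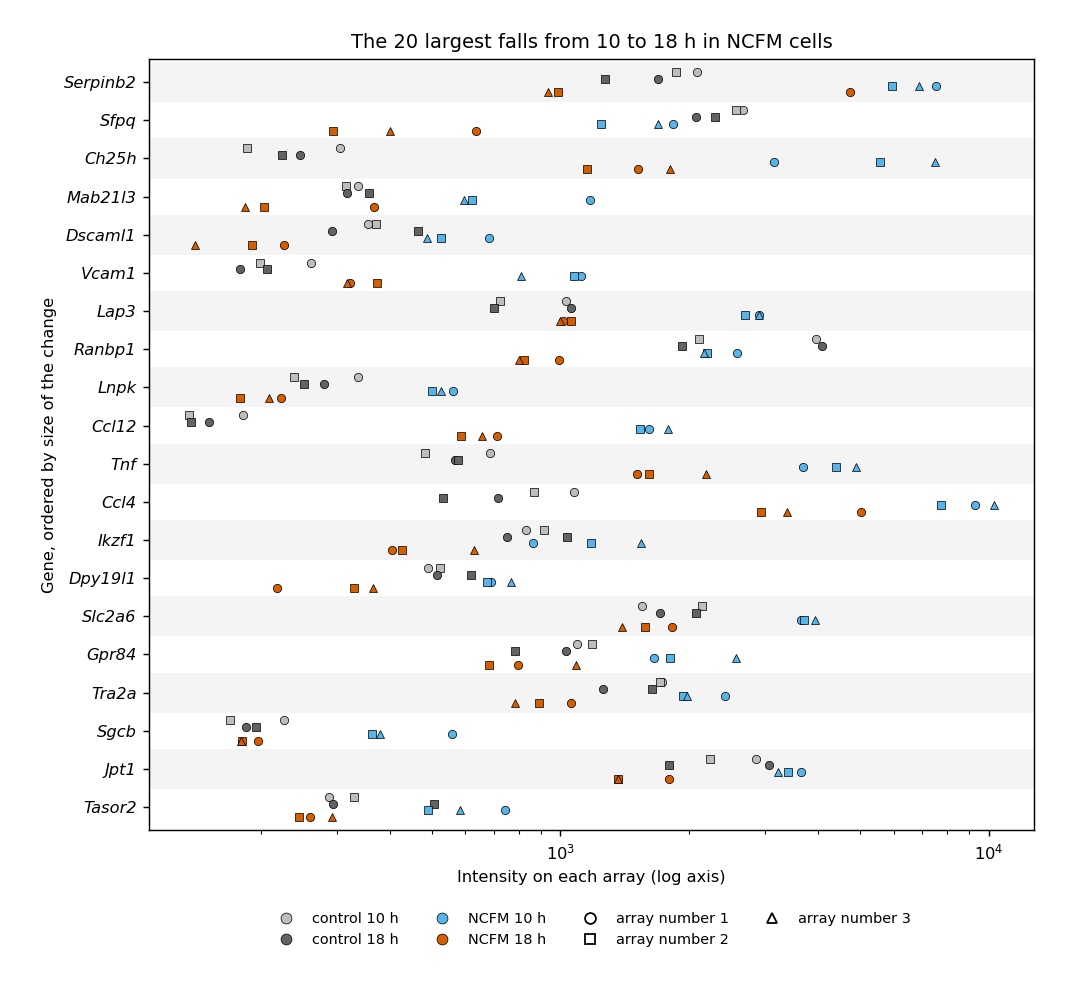
Intensity on each array (log axis) of the 20 genes with the largest falls from 10 to 18 h in NCFM cells, ordered by size from the top, with colours and shapes for groups and array numbers as in the plot of rises. By the rule that chose these genes every orange mark lies to the left of every blue mark. For Lap3 and Sgcb the orange marks lie at the level of the controls.

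Few receptors and feedback genes of the response passed the test, and those that did fell. Myd88, the adaptor of Toll-like receptors, had 3016, 2890 and 3339 at 10 h and 2219, 1806 and 2076 at 18 h (-0.60 ± 0.12, limma adjusted p = 0.0262), and was the only call among 22 pattern receptors and adaptors. Its 18 h arrays were all lower and lay near the controls at 1724 to 2091. The series title names Tlr2, a receptor for bacterial lipopeptides, which had 4004, 5546 and 6339 and then 2977, 2681 and 2782, without overlap. It passed only with the block (-0.89 ± 0.32, adjusted p = 0.197, and 0.027 with the block). Dusp2, a phosphatase that switches off MAP kinases, had 936, 979 and 1221 and then 715, 546 and 634 (-0.73 ± 0.13, adjusted p = 0.0137), as the only call among 17 feedback genes. No NF-kB subunit or feedback gene of 18 was called, with a median of -0.30, and no immediate early factor of 22. Tnfsf10, the death ligand TRAIL, was the only call among 12 inflammasome and cell death genes, from 1088, 1486 and 1819 to 393, 723 and 977 (-1.14 ± 0.27, adjusted p = 0.0489). Myd88 lost its call without any array but NCFM 18 h replicate 1 (adjusted p up to 0.133), Tnfsf10 without NCFM 10 h replicate 2 or 3 or NCFM 18 h replicate 1 or 2 (up to 0.195) and Dusp2 without NCFM 10 h replicate 3 or NCFM 18 h replicate 2 (up to 0.0774).

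Of the members of the antiviral and interferon lists 1 passed the test. Of 39 antiviral effectors Samhd1, which hydrolyses deoxynucleotides, was called, from 7488, 8658 and 9317 to 6152, 5934 and 6548 (-0.45 ± 0.10, limma adjusted p = 0.0406). Its groups did not overlap, but the call was lost without any array but NCFM 10 h replicate 1 (adjusted p up to 0.174), with quantile normalization and with spike-in centring, where its change was -0.28. The median of the list was -0.21, against 0.02 over all genes, and 33 of its 39 members were negative. It was -0.13 after quantile normalization and -0.04 with spike-in centring. With the block 7 members fell and Oas1b rose (0.31), beside 3.41% of all genes called lower and 3.83% higher. Among the falls were the viral RNA sensor Ifih1 (-0.61, limma adjusted p = 0.021), the GTPase Mx1 (-0.67, 0.0363) and the kinase Eif2ak2 (-0.69, 0.036). Rsad2, the antiviral enzyme viperin, had 23759 to 28223 at 10 h and 25674 to 26502 at 18 h, and Ifit1 had 8335 to 14314 and then 8860 to 13467. Both overlapped between the times. None of 9 interferon-inducible GTPases was called (median -0.38), and none of 9 interferon ligands (median 0.00) or 16 receptors and signalling genes (median -0.16). Irf7, the factor that drives interferon genes, had 8429, 9362 and 9718 and then 9523, 9865 and 10397 (0.12 ± 0.31, adjusted p = 0.924).

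Promoters of genes called lower held the core of the interferon-stimulated response element, GAAANNGAA on either strand, in 23 of 167 first windows, or 13.8%. The share was 3.14% of 223 windows of genes called higher and 7.36% of 14452 windows of measured genes. Among the 23 genes were Ccl3, Myd88, Tasor2 and the Schlafen gene Slfn9 (-0.97, limma adjusted p = 0.00622). Of the 23 genes Ccl3 and Myd88 are members of the lists. The others, such as Tasor2, Slfn9, Cox15, Mrpl3, Tomm70a, Sec23b and Nol10, belong to none of them. The gamma-activated sequence TTCNNNGAA was found in 5.39% of windows of genes called lower, 4.93% of those called higher and 7.29% of those measured. For the cAMP response element TGACGTCA these shares were 4.79%, 4.04% and 2.68%. For the CHOP and ATF4 composite core TGATGNAA they were 1.2%, 1.79% and 2.76%. A match describes these letters in the window and no binding.

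Of genes of maturation and antigen presentation, few passed. Cd40, the co-stimulatory receptor for T cell help, had 7931, 7120 and 7898 at 10 h and 4357, 3677 and 3564 at 18 h (-0.99 ± 0.18, limma adjusted p = 0.0147). All 18 h arrays were lower than those of 10 h and above the controls, which lay at 301 to 452. Cd40 was the only call among 24 maturation genes, whose median was -0.42, the lowest of the 35 lists, against -0.02 in controls. By array number the median was -0.19, -0.42 and -0.53. With the block the interleukin 2 receptor chain Il2ra (-0.78), Marcksl1 (-0.50) and Cd44 (-0.47) fell too, and Slamf1 rose (0.53). The co-stimulatory gene Cd86 had 3027 to 4160 and then 2784 to 4733 (-0.10, adjusted p = 0.903). Fscn1, the actin bundler of mature dendritic cells, had 15467, 12616 and 13566 and then 13727, 6408 and 6303 (-0.75, adjusted p = 0.161). Cd40 lost its call without NCFM 10 h replicate 3 or NCFM 18 h replicate 2 or 3 (adjusted p up to 0.0777).

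In MHC class I presentation Nlrc5, the activator of class I genes, had 2582, 2857 and 3409 at 10 h and 1323, 1330 and 1845 at 18 h (-0.98 ± 0.21, limma adjusted p = 0.0298). Tapbpl, a chaperone that edits class I peptides, had 1241, 1231 and 1239 and then 1033, 973 and 890 (-0.36 ± 0.06, adjusted p = 0.0103). Both were lower on every 18 h array and above the controls, but a second probe set of Tapbpl went the other way (0.11). Its call was lost with the probe sets averaged (-0.13, adjusted p = 0.351) and with spike-in centring (-0.19, 0.173). Nlrc5 lost its call without NCFM 10 h replicate 2 or 3 or NCFM 18 h replicate 1 or 2 (adjusted p up to 0.138). The other 12 of 14 class I members were not called, and no MHC class II gene of 12 was, where 1.18% of all genes were called lower. H2-Aa, a class II chain, had 15309 to 16798 and then 15928 to 17360 (0.06), and the invariant chain Cd74 had 20613 to 21954 and then 19181 to 21129 (-0.07). Among 25 uptake receptors Scarb1 rose, and Mrc1, the mannose receptor, fell from 196, 206 and 244 to 81, 97 and 122 (-1.12 ± 0.16, adjusted p = 0.00461). At 18 h Mrc1 lay around the first quartile of the arrays, so its fall depends on the background and was -2.36 with each array's percentile 5 of intensity subtracted. Controls had 1101 to 1359, and with the block the difference from their change was called (-0.96, adjusted p = 0.00215). Of the uptake receptors 3 were called lower and 1 higher with the block.

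Sfpq and some other RNA-binding proteins of splicing fell. They are given with a list of 52 hnRNP, SR, SF3 and related genes that was drawn up after the values had been seen, so the list is a description. Of its members 10 were called lower and none higher, where 1.18% of all genes were called lower. The other 42 were not called, and 16 of the 52 had a change above 0. The list had a median of -0.14, which was 0.02 with spike-in centring and 0.00 in controls. With the block 16 members were called lower and 1 higher, beside 3.41% and 3.83% of all genes. Sfpq, a splicing factor of nuclear paraspeckles, had 1830, 1242 and 1691 at 10 h and 636, 295 and 399 at 18 h (-1.89 ± 0.24, limma adjusted p = 0.00253). Tra2a, a splicing activator, had 2425, 1935 and 1979 and then 1056, 892 and 784 (-1.22 ± 0.12, adjusted p = 8.08e-04). Both were lower on every 18 h array than on any control array, the lowest of which were 2072 for Sfpq and 1257 for Tra2a. Khdrbs1, the RNA-binding protein Sam68, had 2504, 2222 and 2558 and then 1370, 950 and 1129 (-1.09 ± 0.12, adjusted p = 0.00108). The SR protein Srsf3 had 3248, 2570 and 2986 and then 1870, 1122 and 1188 (-1.11 ± 0.19, adjusted p = 0.00992). Srsf2 (-1.09), Tra2b (-0.84), Hnrnpm (-0.78), Sf3b3 (-0.69), Hnrnpk (-0.52) and Sf3a3 (-0.41) were the other calls. Sfpq, Tra2a and Khdrbs1 were called with any array left out. The other 7 lost their calls without NCFM 18 h replicate 2, Sf3a3 and Sf3b3 also without NCFM 10 h replicate 3, and Srsf2 and Hnrnpk without any array but NCFM 18 h replicate 1. Their highest adjusted p lay between 0.0518 (Tra2b) and 0.185 (Srsf2). Other probe sets of some of these genes did not show the fall: 1 of 5 for Sfpq and Srsf3, 1 of 6 for Khdrbs1 and 1 of 3 for Srsf2 had a change above 0, of at most 0.14. With probe sets averaged the change was -0.77 for Sfpq, -0.52 for Tra2a, -0.41 for Tra2b and Sf3b3, and -0.32 for Srsf2, whose call was lost (adjusted p = 0.583). The calls of Hnrnpk and Sf3a3 were lost with probe sets averaged and with spike-in centring.

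Of the genes of ribosome production 1 passed the test. Ncl, the nucleolar protein nucleolin, had 2078, 2089 and 2286 at 10 h and 1540, 1382 and 1440 at 18 h (-0.57 ± 0.10, limma adjusted p = 0.0148, and -0.33 with probe sets averaged), and was the only call among 20 ribosome biogenesis genes. The list had a median of -0.29 (controls -0.13), with 19 of 20 members negative, and with the block Fbl (-0.80), Npm1 (-0.59) and Pes1 (-0.29) fell too. The 15 measured cytosolic ribosomal protein genes had a median of -0.29 with none called, and 2 fell with the block. Both medians stayed below 0 with spike-in centring. Ranbp1, a regulator of nuclear transport, had 2586, 2194 and 2163 and then 994, 820 and 801 (-1.41 ± 0.31, adjusted p = 0.0332). Its groups did not overlap, yet the call was lost without any array but NCFM 18 h replicate 1 (adjusted p up to 0.136). Ncl lost its call without NCFM 10 h replicate 3 or NCFM 18 h replicate 2 (up to 0.0817).

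The remaining large falls belonged to none of the lists. Ikzf1, the lymphoid and myeloid transcription factor Ikaros, had 865, 1178 and 1543 at 10 h and 405, 426 and 628 at 18 h (-1.29 ± 0.22, limma adjusted p = 0.0114). Lnpk, which shapes the endoplasmic reticulum, had 562, 502 and 525 and then 222, 178 and 209 (-1.39 ± 0.15, adjusted p = 0.00105). Sgcb, a sarcoglycan, had 558, 363 and 379 and then 197, 180 and 179 (-1.20 ± 0.17, adjusted p = 0.00407). By the rule that chose these 3 genes every 18 h array was lower than every 10 h array. With the block all 3 were called in the difference from the change in controls (limma adjusted p = 0.0149, 0.00528 and 0.0234). Mab21l3 (-1.66), the mannosyltransferase family gene Dpy19l1 (-1.26), Jpt1 (-1.19) and Tasor2 (-1.17) were the other falls of the 20. So was Dscaml1, a cell adhesion gene (-1.62), of whose 4 other probe sets 3 went the other way. With probe sets averaged the falls were smaller, with -0.70 for Ikzf1, -0.59 for Lnpk, -0.62 for Sgcb, -0.65 for Tasor2 and -0.40 for Dscaml1, all still called. Ikzf1 and Tasor2 lost their calls without NCFM 10 h replicate 3 or NCFM 18 h replicate 2 (adjusted p up to 0.0684 and 0.0691), Mab21l3 without NCFM 18 h replicate 2 (0.0501) and Jpt1 without any array but NCFM 18 h replicate 1 (up to 0.103).

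Stress and growth genes showed single calls in both directions. Ddit3, the stress factor CHOP, had 1390, 1582 and 1421 at 10 h and 2391, 2540 and 2366 at 18 h (0.73 ± 0.12, limma adjusted p = 0.00793), against 514 to 671 in controls. With the block the difference from the control change was called (0.76, adjusted p = 0.0117), though a second probe set of Ddit3 changed by -0.25, and with probe sets averaged the call was lost (0.24, adjusted p = 0.274). In the same list of 21 unfolded protein and stress genes Herpud1, of endoplasmic reticulum degradation, fell (-0.41 ± 0.10, adjusted p = 0.0489), and with the block Atf4, Sesn2 and Trib3 rose by 0.37 to 0.42. Herpud1 lost its call without any 1 of the 6 arrays (adjusted p up to 0.16) and with spike-in centring (-0.25). No heat shock gene of 11 was called without the block, and with it 4 were called lower, beside 3.41% of all genes. Hspa1a, the inducible HSP70, had 4231, 5794 and 4902 and then 1803, 4443 and 2577, against 181 to 228 in controls, and passed with the block (-0.85, adjusted p = 0.02, and 0.199 without it). E2f1, a factor of the G1 to S transition, rose (0.64 ± 0.15, adjusted p = 0.0393) as the only call among 31 cell cycle genes, whose median was -0.17, and its call was lost without any array but NCFM 18 h replicate 1 (up to 0.161). The proteasome subunit Psmd11 rose (0.42 ± 0.07, adjusted p = 0.00692), from 3169 to 3507 up to 4327 to 4524, and 3 of its 7 other probe sets went the other way (0.16 with all averaged, adjusted p = 0.134). It was the only call among 24 proteasome genes without the block, and with the block 1 was called higher and 2 lower.

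Further lists had few calls or none. Cfp, the complement factor properdin, fell (-0.42 ± 0.09, limma adjusted p = 0.0267). With Serpinb2 this made 2 falls among 19 complement and coagulation genes, where 1.18% of all genes were called lower. Timp3, an inhibitor of metalloproteinases, fell from 271 to 290 down to 161 to 221 (-0.52 ± 0.13, adjusted p = 0.0493), as the only call among 13 members. Cfp and Timp3 lost their calls without any array but NCFM 18 h replicate 1 (adjusted p up to 0.119 and 0.177). Both also lost them with spike-in centring (-0.25 for Cfp, adjusted p = 0.117 for Timp3), and Timp3 with probe sets averaged (-0.29). None of 21 iron and redox genes was called (median 0.25), and with the block Slc11a1, a metal transporter of phagosomes, rose (1.08, adjusted p = 0.00384) with the catalase Cat (0.55, 0.0279). None of 19 cell cycle brakes (median 0.25), 29 lysosome genes (median 0.17, and 0.15 in controls) and 12 Bcl2 family genes (median 0.06) was called. With the block 3 cell cycle brakes and 2 lysosome genes were called higher, beside 3.83% of all genes. Over the 35 lists together, 12 of 658 measured genes (1.82%) were called higher and 19 (2.89%) lower, beside 1.61% and 1.18% of all genes.

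**Figure D4:**
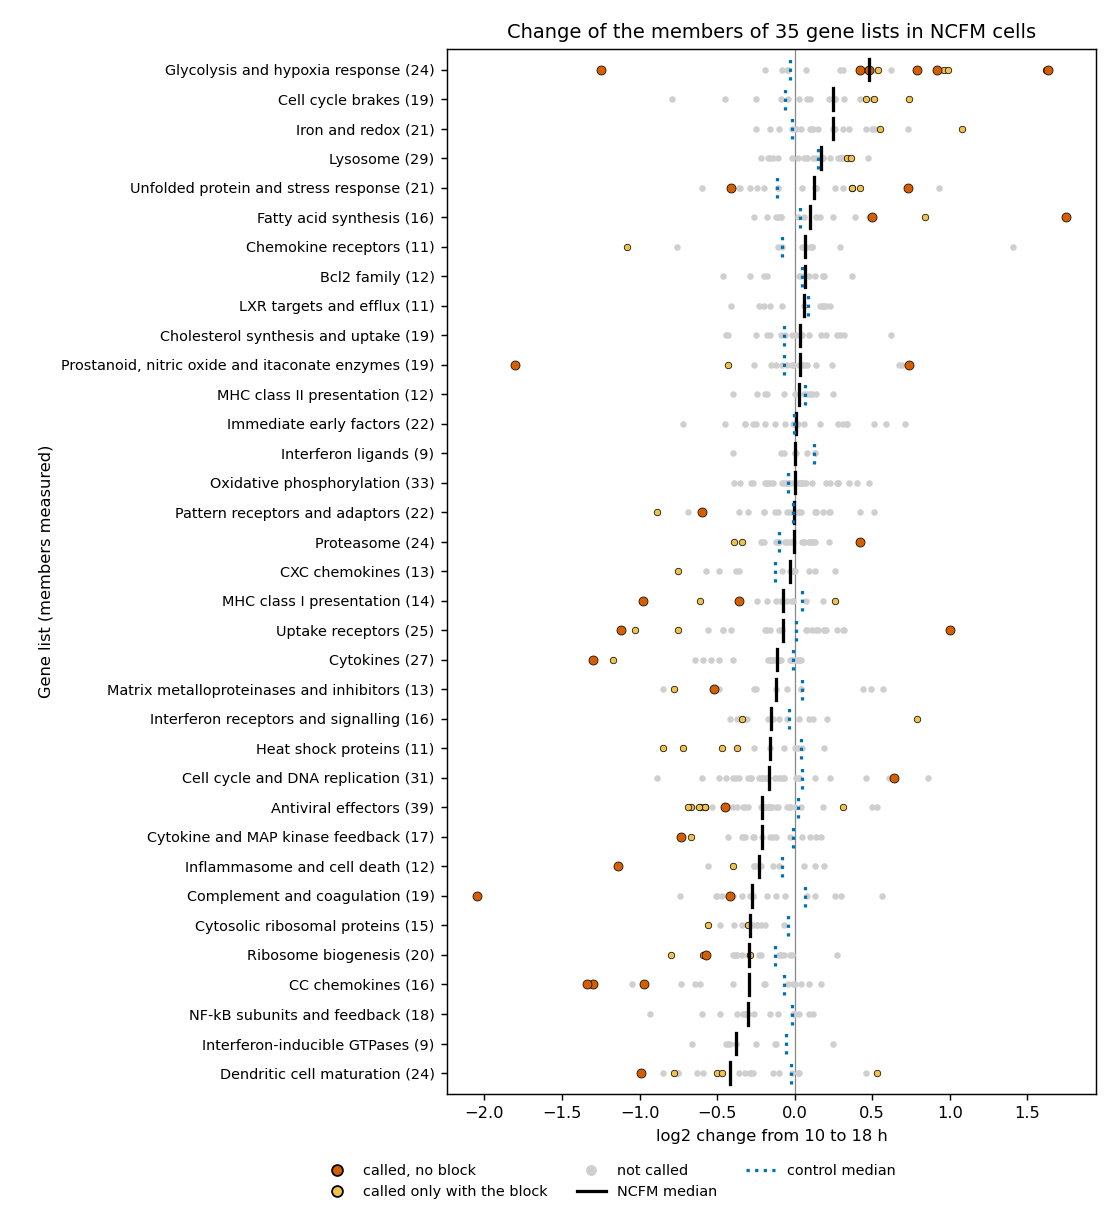
Change from 10 to 18 h on the log2 scale for each measured member of 35 gene lists, ordered by the NCFM median (black bars), with the median change in controls as dotted blue bars. Orange points were called without the block, yellow points with it alone, and grey points in neither. The glycolysis and hypoxia list has the highest median, 0.48, and the maturation list the lowest, -0.42, while the control medians of both lie near 0.

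No marker of any of the 10 cell types was called without the block. The dendritic cell markers had a median change of -0.50 over 10 measured genes, and with the block Dpp4 (-1.09), Zbtb46 (-0.79) and Itgax (-0.60) fell. The log2 of their summed intensity was 14.84 to 15.15 at 10 h and 14.49 to 15.09 at 18 h. The macrophage markers had a median of 0.13 over 9 of 10 genes (0.34 in controls), with sums of 14.85 to 15.56 and 15.20 to 15.70. With the block Adgre1, the gene of F4/80, rose (0.81) with Csf1r (0.44), and Mertk fell (-0.92). Granulocyte markers had a median of -0.83 over 8 of 10 genes, with sums of 13.81 to 15.09 and 12.70 to 14.10, and controls had -0.79. With the block Ngp (-1.09) and Ltf (-0.80) fell among them, the plasmacytoid marker Tcf4 fell by 0.77 and the mast cell marker Fcer1a, dim on all 6 arrays, by 0.27. S100a9, an abundant granulocyte gene, had 12909, 6500 and 4075 and then 5304, 3334 and 1020. The markers Elane and Mpo lay at 148 to 302 on all 6 arrays, against array medians of 164 to 166. The part of these values in the changes described above was not tested.

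In control cells no gene of 18193 was called between 10 and 18 h (0%), where 653 had an unadjusted p under 0.05 in limma. There the test rests on 2 arrays against 2, so this count is not comparable with that of NCFM cells. With the block 2 genes were called, Id3 and Kdm2a, both lower. Id3 had 368 and 420 and then 182 and 280 in controls, and 173 to 216 and then 184 to 229 in NCFM cells. Without control 18 h replicate 1, which leaves 1 array assumed to vary like the other groups, 22 genes were called.

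Whether the NCFM change differed from the control change was tested in the same fit. A single gene passed, or 0.0055%, and 1358 had an unadjusted p under 0.05. It was Asb13, an adaptor of a ubiquitin ligase complex, with 607, 666 and 659 at 10 h and 323, 314 and 315 at 18 h in NCFM cells (-1.02 ± 0.06, limma adjusted p = 1.39e-05). Controls stayed at 254 to 264, so the 18 h arrays of NCFM cells had come close to them, and the difference was -1.04 ± 0.09 (adjusted p = 0.00198). With the block over all 16 arrays 82 genes passed, 31 with a difference above 0 and 51 with one below 0. With the block in only the 4 groups compared 2 passed. In the fit without the block, leaving out NCFM 18 h replicate 1 gave a count of 30. For genes not called in this difference it is not shown that the change belonged to NCFM cells alone.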

How the data were processed

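RNA of 16 samples was measured on single-channel arrays. The deposited table gives a linear intensity per probe set for each, as the authors made it. The method of summarizing and normalizing is not stated in the sources used here. Intensities were taken to log2. Of 45101 probe sets 34945 name 1 gene, 932 several, 9160 none in the probe table, and 64 are controls. The brightest probe set of each of 18193 genes was kept.

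Genes were fitted in limma 3.58.1 (R 4.3.3; lmFit and eBayes) with a mean for each of 6 groups over all 16 arrays (10 residual degrees of freedom), without a block. Benjamini and Hochberg adjustment ran over all genes, with calls at adjusted p under 0.05. On simulated data the fit recovered 86.7% of 200 changes of 1 log2 unit between NCFM 10 and 18 h (18193 genes, false share 4.49%), without shared array effects.

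Deviations from the group means correlated at 0.71, 0.53 and 0.63 between equal array numbers of 10 and 18 h. Between others they correlated at -0.63 to 0.38, with 0.38 and 0.30 between numbers 2 and 3. Deviations of 3 arrays from their mean sum to 0, so these values are not independent. The number pairs these arrays from the data, most clearly for number 1 against 2 and 3. The labels give numbers only. The smallest SD of the log2 difference between 2 arrays was 0.139, and no columns were identical.

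Named genes are the 20 largest rises and 20 largest falls among called genes with separated arrays and a higher group mean at or above the median gene level, genes called in the difference to controls, and list members. Of 807 listed genes 716 were measured, 1 through an older symbol. The comparison, the 35 lists, the 10 marker lists and the motifs were chosen with earlier results of these data known, and the splicing list and the hypoxia motif after the values were seen. Promoter sequences are RefSeq's (GRCm38.p6). Alternatives changed the scaling, probe sets, filter, variance model, background, samples, block and threshold. Python 3.11.15 with matplotlib 3.10.9 drew the figures.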

Additional observations from a re-analysis of the deposited data

Results flagged for a closer look

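The change of Asb13 from 10 to 18 h differed between NCFM cells and controls by a test of the difference itself in limma. The difference was -1.04 on the log2 scale, from -1.02 in NCFM cells and 0.02 in controls, and all 3 NCFM arrays of 18 h lay below those of 10 h. The 2 other probe sets of Asb13 fell by 1.16 and 1.25 in NCFM cells. No gene was called in the difference when the probe sets of a gene were averaged. No group has more than 3 arrays, so outlying samples were not tested for within groups. A fit without NCFM 4 h replicate 3 was nevertheless added after seeing the data.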

How the results depend on the processing

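The count of 507 genes became 604 with quantile normalization, 459 with median centring, 530 with probe sets averaged per gene, 515 without dim genes, 399 with an intensity trend, 498 with a pseudocount of 16 and 480 with percentile 5 subtracted. It moved by over 1.5 times to 898 with spike-in centring, 783 over all probe sets, 2769 with array weights, 1316 with the replicate block over 16 arrays, 2481 with the replicate block in the 2 groups compared, 282 in those groups without it, 1285 on arrays numbered 2 and 3, 133 at adjusted p under 0.01 and 64 with a change of at least 1 log2 unit. Leaving out 1 array gave 127 to 596. Of the 507 genes 403 were called on arrays 2 and 3 alone and 204 in the 2 groups alone. For controls the count of 0 became 2 with the replicate block over 16 arrays and 0 to 22 with 1 array left out. For the difference the count of 1 became 2 with spike-in centring, 0 with the mean of probe sets, 4 over all probe sets, 2 with percentile 5 subtracted, 82 with the replicate block over 16 arrays, 2 with the replicate block in 4 groups, and 1 to 30 with 1 array left out. Without NCFM 4 h replicate 3, an alternative chosen after seeing the data, it was 5, and the calls of Tnfsf10, Herpud1 and Timp3 were lost. Quantile normalization ended the calls of Samhd1, Myd88, Tnfsf10, Herpud1, Cfp and Srsf2. Over 71 called genes that the text or its rule names, 1266 of 1562 recomputed values kept the call, 296 lost it and 0 reversed. 20 genes never lost it. Of 665 recomputed list medians 95 moved by more than the spread between array pairs. The replicate block changed no call of these 71 genes. The causes were not tested.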
